A study of Mus musculus with 9 samples.

Results

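The Prdm14 locus was taken as chr1:12900000-13220000 of the mouse genome build mm9, with the Prdm14 gene near chr1:13103000-13118000. It was covered by 319 of the 2654924 windows in which reads had been counted, and 17 of these overlapped the gene. Each window was 2 kb long and began 1 kb after the one before it. The reference table of gene order places Slco5a1, the pseudogene Gm5250 and the long non-coding RNA Gm39592 on the lower side of Prdm14, and Ncoa2 on its upper side. Lower and upper refer throughout to the genome coordinate. As background, Prdm14 is transcribed from its upper towards its lower end.

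Prdm14 encodes a DNA-binding protein of the PRDM family that is switched on when primordial germ cells, the precursors of eggs and sperm, are set apart from the epiblast. Together with Blimp1 (Prdm1) and Tfap2c it forms the core of the transcription factors that set up the germ cell programme in the mouse. T (Brachyury), the founding T-box protein, drives mesoderm genes, SMAD1 relays BMP signals into the nucleus, and TCF1 (Tcf7) binds DNA as a partner of beta-catenin in WNT signalling.

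The study mapped where SMAD1, T and TCF1 bind in mouse cells that were being turned into primordial germ cell-like cells, by chromatin immunoprecipitation and sequencing. It held 9 libraries, of which 6 were immunoprecipitated and 3 were inputs, that is fixed and sheared chromatin with no antibody. All libraries came from strain C57BL/6 and carry the cell type label EpiLC, for the epiblast-like cells from which the aggregates were grown. Aggregates were floated in medium with LIF, to which BMP4 and WNT3A were added or not, and the labels give no cytokine for a single library. PV carries a Prdm14-mVenus reporter and gave 3 libraries, which were T, SMAD1 at 36 h and input PV. BV carries a Blimp1-mVenus reporter and gave SMAD1 at 12, 24 and 36 h, TCF1, input BV and an input titled BVSC, whose genotype label is also BV. No time is given for T, TCF1 or the inputs. The labels do not say how either reporter was built, or whether a line was 1 clone.

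Depth was 14925074 to 43354004 reads in the immunoprecipitated libraries and 42532115 to 134657262 in the inputs. Each library was divided by its mean count per autosomal window, which ran from 11.8 for SMAD1 at 36 h in BV to 105.9 for input BV, so a level of 1 is the library's own average. Every group held 1 library, so no antibody and time was repeated within a line and no p-value is given. The read level of the lines, which any library shows, could be compared over 3 PV and 6 BV libraries. Intervals are exact 95% intervals of the counts. They hold counting error alone and not the spread between libraries. PCR copies of a fragment are not separate molecules, so any copies among the counts would make these intervals too narrow.

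The Prdm14 gene lay inside a long segment that was raised in all 3 PV libraries and in no other library. The longest run of windows at a level of 4 or more went from 12968001 to 13140001 in input PV, a length of 172 kb. The same rule, applied to T and to SMAD1 in PV alone, gave the same ends to the window. In each of these libraries 168 windows stood at 4 or more, against 0 windows in each of the 6 BV libraries. The highest single window of the locus was at 1.64 in input BV and 2.09 in input BVSC. For SMAD1 in BV it was 2.51 after 12 h, 2.34 after 24 h and 2.46 after 36 h, and for TCF1 it was 2.54. Windows at 4 or more in a PV library lie above these BV values by the choice of that level. The segment also held low PV windows, down to 0.687 in input PV, which are described below. Raised windows were thus found only under the PV genotype label.

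Over the 171 windows of the segment the median level was 10.7 in input PV (median count 357), 11.8 in T (193) and 11.1 in SMAD1 PV (381). In BV the median was 1.19 in the input, 1.26 in SMAD1 after 12 h, 1.53 after 24 h, 1.36 after 36 h and 1.34 for TCF1, with 1.17 in the input titled BVSC. Summed over the segment, input PV stood at 8.78 times input BV (8.59 to 8.98), and input BVSC at 0.988 times (0.952 to 1.03). Both inputs of the BV genotype were thus at one level here, and only the PV input differed.

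**Figure D1:**
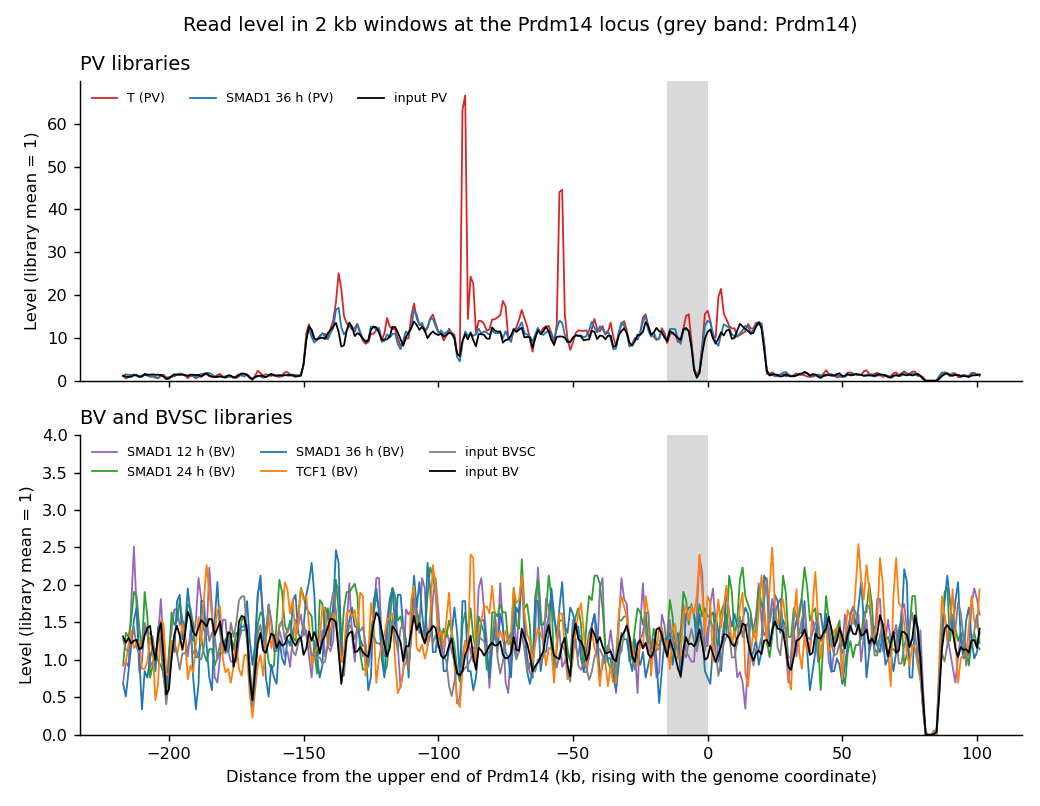
Read level in 2 kb windows across the Prdm14 locus, each library scaled to its own autosomal mean of 1, against distance in kb from the upper end of Prdm14 (grey band), with PV libraries above and BV libraries below on separate vertical scales. The 3 PV lines rise together over 172 kb and dip together inside the gene, T alone has tall peaks, and the 6 BV lines stay at or below 2.54; all 9 fall to about 0 in a short gap on the upper side.

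The raised segment was far from centred on the gene. It began 135 kb below the lower end of Prdm14 and stopped 22 kb above the upper end, so most of it lay on the side of Slco5a1. Its ends were sharp. In input PV the level in 1 kb bins stepped from 1.19 in the bin from 12967001 to 6.63 in the next and 12.2 in the one after. At the upper end it fell from 10.9 in the bin from 13138001 to 3.46 and then 1.07. T gave 1.47, 6.23 and 15.9 in the lower set of bins and 15.2, 2.44 and 0.73 in the upper set, and SMAD1 PV gave 1.46, 6.02 and 13.8, then 13.5, 3.74 and 1.17. The step was thus placed in the same bin in each PV library. At the upper end 1 bin held an intermediate level. At the lower end input BV was low as well in the bin from 12968001, at 0.812. Relative to input BV, input PV stood there at 8.16 (5.69 to 11.9), beside 8.20 in the next bin and 0.903 in the one before.

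Outside the segment the PV and BV inputs were close to each other. The 144 flanking windows summed to 0.970 times input BV in input PV (0.930 to 1.01). Of these, the 66 on the lower side stood at 0.926 times (0.870 to 0.985) and the 78 on the upper side at 1.01 times (0.953 to 1.07). The lower flank was therefore slightly under the BV level, by more than counting error, while the interval of the upper flank held 1.

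Inside the segment the level was nearly even. Over its 161 core windows, which leave out the edges and the low stretch described next, input PV stood at 9.01 times input BV (8.81 to 9.22). The ratio of single windows had a median of 9.02, a 10th percentile of 7.75 and a 90th percentile of 10.4. The lowest was 6.78 in the window from 13088001 and the highest 12.2 in the window from 13054001. The coefficient of variation over these windows was 12.4%, beside 10.5% from counting error alone. Below the low stretch the 141 core windows stood at 8.94 times input BV (8.73 to 9.16), and above it the 20 core windows stood at 9.39 times (8.81 to 10.0), so the intervals on both sides of it overlapped.

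A short stretch inside the gene interrupted the raised segment in all 3 PV libraries. In input PV the windows from 13113001 to 13116001 were under a level of 2, a span of 3 kb that began 10 kb above the lower end of Prdm14 and ended 2 kb below its upper end. The same rule gave 13113001 to 13116001 in SMAD1 PV and 13113001 to 13115001 in T. Going up the chromosome in 1 kb bins from 13111001, input PV stood at 11.5, 4.54, 0.42, 0.96, 2.75 and 9.85. T stood at 12.7, 5.50, 0.37, 2.32, 2.69 and 14.2 in these bins, and SMAD1 PV at 11.6, 4.03, 0.88, 1.58, 2.28 and 12.7. All 3 libraries thus had their lowest value in the same bin, chr1:13113001-13114001, and were back in the raised range by the bin from 13116001.

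Over the pair of bins at chr1:13113001-13115001, input PV held 23 reads, a level of 0.687 (0.435 to 1.03). T held 22 reads, a level of 1.34 (0.842 to 2.04), and SMAD1 PV held 42, a level of 1.23 (0.885 to 1.66). Input BV held 134 reads there, a level of 1.27. Relative to input BV, T stood at 1.06 times (0.644 to 1.68) and SMAD1 PV at 0.970 times (0.669 to 1.38), whereas input PV stood at 0.543 times (0.333 to 0.849). T and SMAD1 PV were therefore at the level of the BV line within counting error, and input PV was below it. The stretch was picked by its low values in input PV, so that value is a description, while the other PV libraries took no part in the choice. The BV libraries showed no dip. Their ratios to input BV were 0.880 for input BVSC, 1.27 for SMAD1 after 12 h, 1.12 after 24 h, 0.940 after 36 h and 1.46 for TCF1.

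**Figure D2:**
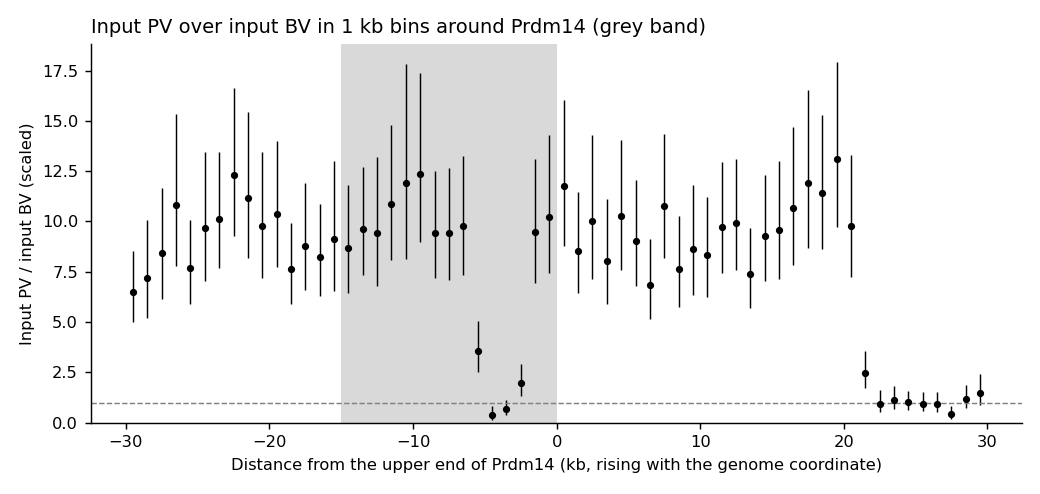
Input PV over input BV, both scaled, in 1 kb bins within 30 kb of the upper end of Prdm14 (grey band), with exact 95% intervals of the counts as bars and a dashed line at 1. Bins of the segment sit mostly between 6.5 and 13, 2 bins inside the gene fall below 1, and the ratio drops back to about 1 some 22 kb above the gene.

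Searched in the same way over the autosomes and X, no other segment was raised in PV. The search asked for at least 20 windows at a level of 4 or more in input PV and at least 3 times input BV. It returned 1 segment, the one at Prdm14, which held 168 of the 175 such windows in these chromosomes. The same search found 2 segments in input BV. One of them, on chromosome 10 from 44090001 to 44320001, was of a like length (230 kb) and height (12.2 in input BV, 6.03 in input BVSC, 1.22 in input PV), and the other was 39 kb on chromosome 3 at a level of 4.42. Input BVSC alone had another 2, the taller of them 22 kb on chromosome 6 at a level of 14.8. Genes were not assigned to these segments, since no mm9 annotation was used here. None of these segments was raised in input PV, where all had medians between 0.955 and 1.22.

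Enrichment was (level + 0.5) in the immunoprecipitated library over (level + 0.5) in the input of its line, which carries the same raised level. The raised level cancels in the plain ratio but not fully in the enrichment, since the added 0.5 pulls windows at a level near 1 towards 1 more than windows of the raised segment. The window from 13041001 in the segment had a plain T ratio of 2.09 and an enrichment of 2.04, whereas the window from 12950001 below it had 2.05 and 1.73. Calls were therefore also made on plain ratios. Reads do not tell the native Prdm14 locus from any further copies, so every PV value is an average over all of them. Of the 319 windows, 314 had enough input (a level of at least 0.25) to be tested in each library.

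With the pseudocount of 0.5, T was the sole factor to reach an enrichment of 2 in a 2 kb window of the locus. It did so in 9 of 314 windows (2.87%), beside 0.475% of windows of the autosomes and X, and reached 4 in 4 windows (1.27%), beside 0.0498%. No window reached 2 for SMAD1 at 36 h in PV, where 0.0566% of windows genome-wide did. The same held for SMAD1 in BV at 12 h (0.166% genome-wide), 24 h (0.0347%) and 36 h (0.0517%), and for TCF1 (0.0992%). At such shares under 1 window would be called in 314, so a count of 0 for these 5 libraries is near their background and is not a result about the locus. All 9 windows of T lay below the gene, and none overlapped Prdm14.

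The pseudocount moved these counts and shares. On plain ratios T reached 2 in 12 of 314 windows (3.82%), beside 2.28% genome-wide, so its share was much closer to the background at this threshold. It reached 4 in 4 windows (1.27%), beside 0.112%. The 12 windows were the 9 in the segment, with 305 to 1091 T reads each, and 3 outside it, with 14 to 40. SMAD1 PV then reached 2 in 1 window (0.987% genome-wide). In BV, SMAD1 did so in 1 window after 12 h (1.41%), 2 after 24 h (0.57%) and 4 after 36 h (0.999%), and TCF1 in 2 (1.26%). These rested on 11 to 51 reads each and were near or below their backgrounds, and none of the 5 libraries reached 4.

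The strongest T region was chr1:13026001-13029001, which lay 76 kb below the lower end of Prdm14. Its top window held 1035 T reads against 314 input PV reads, levels of 63.2 and 9.38. The enrichment was 6.45 and the plain ratio 6.74 (5.94 to 7.68). By enrichment, 345 windows genome-wide (0.0147%) stood as high in T. In 1 kb bins nearly all of it fell in 1 bin, chr1:13027001-13028001, with 955 T reads against 196 and a ratio of 9.97 (8.54 to 11.7).

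The next T region, chr1:13062001-13065001, lay 39 kb below the gene. Its top window held 730 T reads against 346, with an enrichment of 4.16 and a plain ratio of 4.32 (3.79 to 4.92). By enrichment, 1050 windows genome-wide stood as high. The ranks of both regions are by enrichment, which lowers windows at a level near 1 more than windows of the segment. Genome-wide, 1173 windows reached 4 by enrichment and 2647 by plain ratio. This second region too narrowed to 1 bin, chr1:13063001-13064001, with 568 reads against 147 and a ratio of 7.91 (6.58 to 9.54). Each of these T regions thus came down to about 1 kb. The first was the higher in 2 kb windows beyond counting error, while in 1 kb bins the intervals overlapped.

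Weaker T windows lay at 3 other places. At chr1:12980001-12983001, 121 kb below the gene, the top window held 351 T reads against 267, with a ratio of 2.69 (2.29 to 3.17). The window chr1:13030001-13032001, just above the strongest region, had a ratio of 2.38 (2.04 to 2.77) from 370 reads against 318. At chr1:13041001-13043001, 61 kb below the gene, the ratio was 2.09 (1.78 to 2.47). The lower bound of the last of these was under 2, so that window was not separated from the threshold by counting error.

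On the upper side of the gene T came near the threshold. The window chr1:13121001-13123001, which was picked after its values were seen, had 320 T reads against 330, an enrichment of 1.94 and a ratio of 1.98 (1.70 to 2.32). In the 1 kb bin from 13122001 the ratio was 2.48 (2.03 to 3.03), from 224 reads against 185. SMAD1 PV in the same bin was at 0.767 (0.613 to 0.959), below its input, so this rise was not shared by both antibodies of the PV line.

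**Figure D3:**
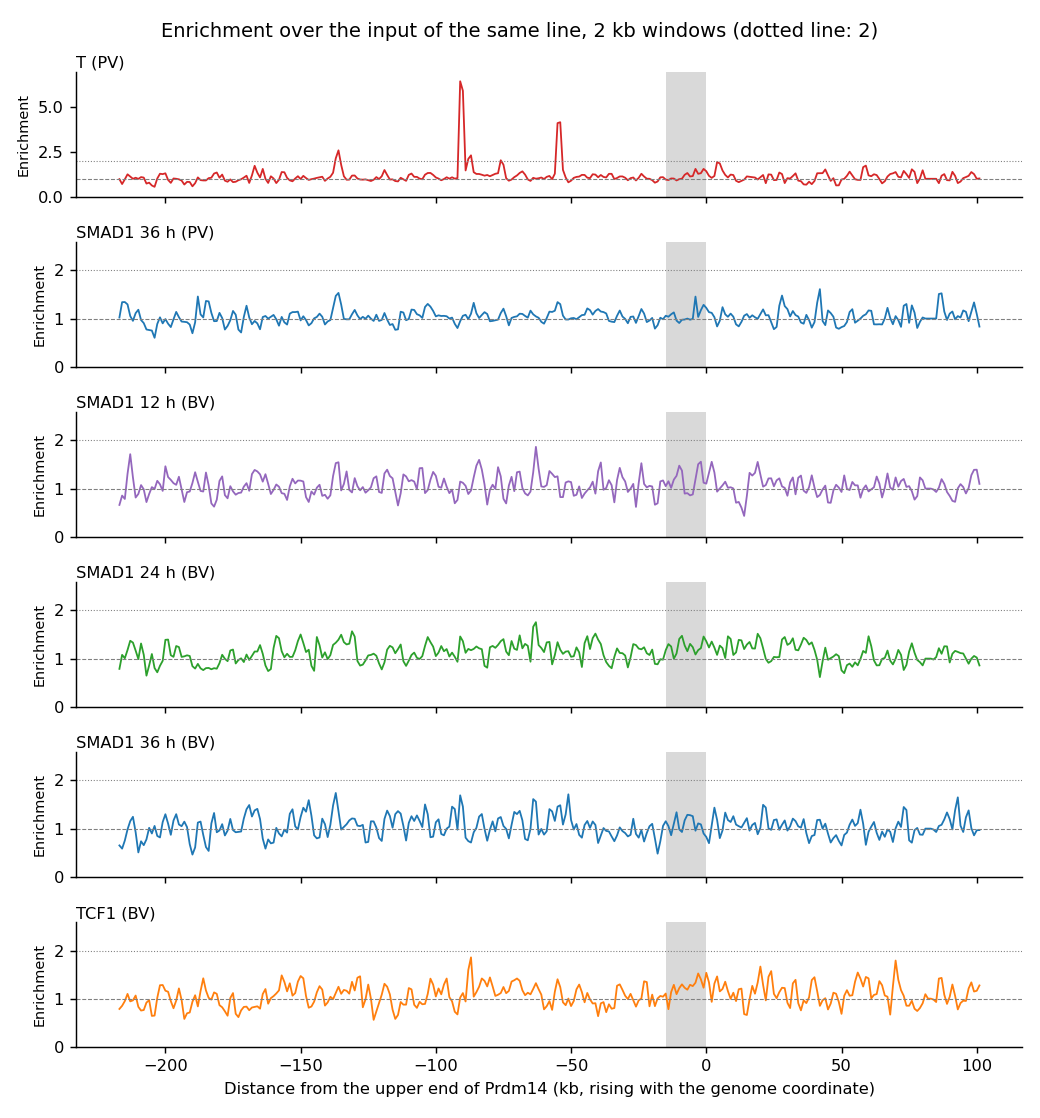
Enrichment over the input of the same line in 2 kb windows for the 6 immunoprecipitated libraries, against distance in kb from the upper end of Prdm14 (grey band), with a dashed line at 1, a dotted line at 2 and a taller scale for T. T rises to 6.45 and 4.16 at its strongest places below the gene, and the other 5 libraries stay under 2 in every window at the pseudocount of 0.5.

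In 1 kb bins the threshold of 2 was passed more often by every library but SMAD1 PV, and each count is given beside its own background. T passed in 10 of 313 bins, beside 1.66% of bins genome-wide. SMAD1 PV passed in 0 of 313, beside 0.447%. In BV, SMAD1 passed in 3 of 314 bins at 12 h (0.777% genome-wide), 2 at 24 h (0.264%) and 3 at 36 h (0.601%), and TCF1 passed in 3 (0.719%). The counts of the BV libraries correspond to at most 0.955% of the bins, near these backgrounds. Of the 10 T bins, 7 lay in the raised segment and rested on 122 to 955 reads, and the 3 above it rested on 15 to 25 reads.

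SMAD1 in PV stood at its input at the strongest T region. In the top T window from 13026001, SMAD1 PV held 302 reads against 314, a ratio of 0.942 (0.801 to 1.11). In BV the ratio was 1.23 (0.662 to 2.14) after 12 h, 1.73 (1.08 to 2.69) after 24 h and 2.10 (1.24 to 3.40) after 36 h, from 15, 27 and 21 reads against 90. In the 1 kb bin from 13027001 SMAD1 in BV stood at 1.25 (0.544 to 2.56) after 12 h and 2.07 (1.16 to 3.55) after 24 h. After 36 h it stood there at 2.72 (1.45 to 4.82), beside 0.954 (0.778 to 1.17) in PV. The window from 13026001 is among the 3 highest of SMAD1 at 36 h in BV in the locus. It was named for that as well as for T, so no difference between the lines is read from it or its bins.

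At the next T region SMAD1 was slightly above input in PV. The window from 13063001 held 464 SMAD1 PV reads against 346, a ratio of 1.31 (1.14 to 1.51), and the 1 kb bin there gave 1.59 (1.29 to 1.96). In BV the window ratio was 1.69 (1.04 to 2.62) after 36 h, 1.26 (0.807 to 1.91) after 24 h and 0.750 (0.389 to 1.33) after 12 h. At the T region 121 kb below the gene, the window from 12981001 gave SMAD1 PV 1.57 (1.34 to 1.83). SMAD1 in BV stood there at 1.95 (1.11 to 3.27) after 12 h, 1.68 (0.984 to 2.77) after 24 h and 1.62 (0.827 to 2.96) after 36 h. Input BV had its lowest level of the segment in this window, 0.680, and input PV stood at 7.97 there against a median of 10.7. The SMAD1 levels in BV were 1.33, 1.14 and 1.10 at these times, of which those after 24 and 36 h were below their medians over the segment. The 3 BV ratios share that low input. In the overlapping window from 12980001, where T also reached 2, input BV was at 1.11. SMAD1 in BV stood there at 1.77 (1.13 to 2.69) after 12 h, 1.48 (0.956 to 2.22) after 24 h and 2.08 (1.31 to 3.18) after 36 h. SMAD1 PV stood there at 1.49 (1.31 to 1.70). That window was named for its height in SMAD1 at 36 h in BV.

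The highest SMAD1 window in BV after 12 and 24 h, named for that rank, was a place where T stood at its input. The window from 13054001 had a ratio of 2.32 (1.51 to 3.48) after 12 h, 2.15 (1.44 to 3.15) after 24 h and 1.85 (1.10 to 2.98) after 36 h, from 32, 38 and 21 reads against 102 in input BV. These 3 ratios share that input, whose level of 0.963 here was below the segment's median of 1.19. In PV the window held 422 SMAD1 reads against 395, a ratio of 1.05 (0.910 to 1.20), and T was at 1.005 (0.842 to 1.20). The same window had the highest PV to BV ratio of the inputs. At 36 h, the time both lines share, the intervals of PV and BV overlapped. The window was picked for its height in BV, so a lower value in PV is not read as a difference between the lines.

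TCF1 was highest at the window from 13030001, named for that rank, which lies just above the strongest T region. It held 51 TCF1 reads against 110 in input BV, an enrichment of 1.86 and a ratio of 2.27 (1.60 to 3.19). By enrichment, 6647 windows genome-wide (0.281%) stood as high in TCF1. In the 1 kb bin from 13030001 TCF1 had 44 reads against 77, a ratio of 2.80 (1.89 to 4.11), and T had 298 against 220, a ratio of 2.77 (2.32 to 3.31). TCF1 and T were measured in different lines with different inputs, and their ratios in this bin differed by less than counting error. At the strongest T window itself TCF1 was at 1.03 (0.595 to 1.71).

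The remaining windows named by rank lay at scattered places. TCF1 reached an enrichment of 1.79 at 13187001 and 1.67 at 13137001. SMAD1 PV was highest at 13159001, with 1.61 from 45 reads against 21, and also reached 1.52 at 13204001. In BV, SMAD1 reached 1.71 at 12904001 and 1.60 at 13033001 after 12 h, and 1.57 at 12986001 and 1.52 at 13076001 after 24 h. After 36 h it was highest at 12980001, with 1.74, followed by 1.71 at 13066001. The window from 12980001 overlaps that from 12981001, which ranked next for SMAD1 PV, and T reached an enrichment of 2 in both.

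**Figure D4:**
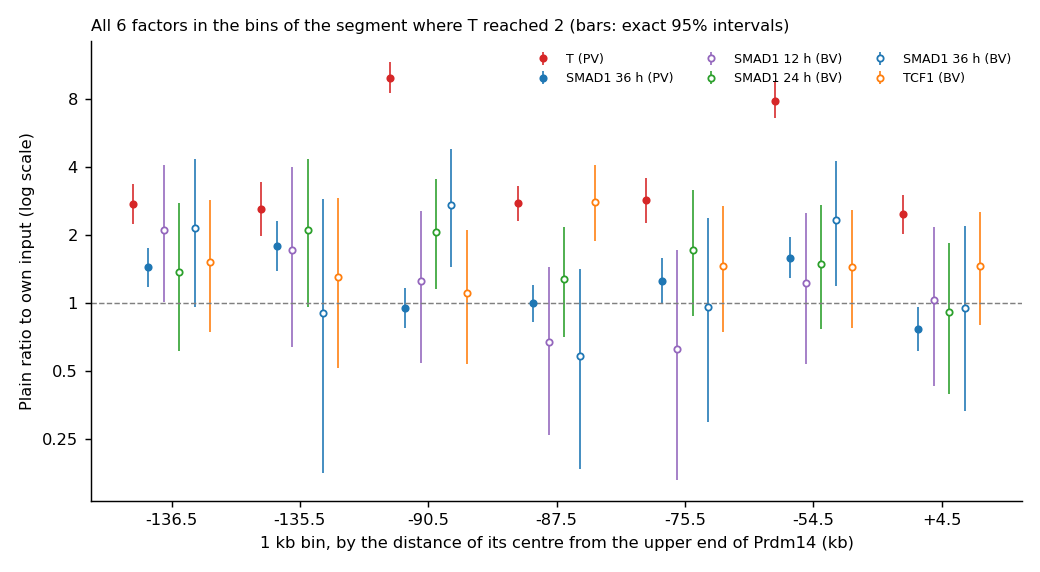
Plain ratio to the input of the same line (log axis) for the 6 immunoprecipitated libraries in the 7 bins of 1 kb within the raised segment where T reached an enrichment of 2, placed by the distance of the bin's centre from the upper end of Prdm14, with exact 95% intervals of the counts as bars. The bins were chosen for T, so its height is set by the choice. Among the other libraries TCF1 reaches 2.80 in the bin from 13030001. SMAD1 in BV stands at 2.72 after 36 h and 2.07 after 24 h in the bin from 13027001. In the bin from 12981001 it stands at 2.11 (1.01 to 4.08) after 12 h and 2.14 (0.958 to 4.34) after 36 h. After 24 h it stands at 2.11 (0.956 to 4.34) in the bin from 12982001. Intervals are narrow in the PV libraries (filled points) and wide in BV (open points).

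Over the gene body itself no factor had a window at 2. The median enrichment of its 17 windows was 1.13 for T, 1.03 for SMAD1 PV and 1.23 for TCF1, and for SMAD1 in BV it was 1.15 after 12 h, 1.24 after 24 h and 1.09 after 36 h. Summed over the gene, TCF1 stood at 1.33 times input BV (1.17 to 1.51) and SMAD1 at 24 h at 1.30 times (1.13 to 1.496). SMAD1 in BV stood at 1.24 times (1.05 to 1.45) after 12 h and 1.09 times (0.902 to 1.31) after 36 h. T stood at 1.15 times input PV (1.08 to 1.22) and SMAD1 PV at 1.06 times (1.004 to 1.12). No genome-wide background is given for sums of this length. The highest T and SMAD1 PV windows of the gene, at 1.55 and 1.46, were both the window from 13113001 in the low stretch. Both rest on the 23 reads of input PV there, and SMAD1 PV was at 0.970 times input BV in that window.

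The segment as a whole stood above its flanks beyond counting error for T and for SMAD1 at 24 h. The intervals of segment and flanks overlapped for the other 4 libraries, which does not show segment and flanks to be equal. For SMAD1 at 36 h in BV the overlap was slight, with 1.05 to 1.18 in the segment and 0.928 to 1.06 in the flanks. For TCF1 the flanks differed, at 0.938 times input BV on the lower side and 1.15 times on the upper side. T summed to 1.24 times input PV in the segment (1.22 to 1.26) and to 1.06 times in the flanks (0.992 to 1.13). SMAD1 at 24 h summed to 1.26 times input BV in the segment (1.20 to 1.31) and 1.06 times in the flanks (1.00 to 1.11). The other segment sums were 1.05 for SMAD1 PV, 1.12 for SMAD1 at both 12 and 36 h in BV, and 1.14 for TCF1, beside 1.02, 1.04, 0.990 and 1.05 in the flanks. Among 172 kb blocks tiled over the genome, 1.73% were as high as the segment for T and 0.682% for SMAD1 at 24 h, against 15.8 to 29.3% for the other 4 libraries. The sums of T include its strong regions, and its median window of the segment was at 1.09; for SMAD1 at 24 h the median was 1.20, with 142 of 171 windows above 1.

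Over the locus as a whole the SMAD1 libraries differed little. At 36 h the median enrichment over 319 windows was 1.03 in PV and 1.03 in BV, and the PV value was the higher in 151 windows. In BV the medians were 1.04 after 12 h, 1.12 after 24 h and 1.03 after 36 h. The 24 h library was above the 12 h library in 186 of 319 windows, by a median of 0.08 in log2, and the 36 h library was above the 24 h library in 120, with a median log2 difference of -0.10. In the segment alone the 24 h library stood further from the others, with medians of 1.06 after 12 h, 1.20 after 24 h and 1.07 after 36 h. There the 24 h library was above the 12 h library in 109 of 171 windows. The 36 h library was above the 24 h library in 61 of them. All 3 times share input BV, so these differences come from the SMAD1 libraries alone, and neighbouring windows share reads.

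Depth set what could be seen. In the segment the upper bound of a window's interval was typically 1.43 times its lower bound for T and 1.34 times for SMAD1 PV, against 2.86, 2.36 and 3.11 times for SMAD1 at 12, 24 and 36 h in BV and 2.35 times for TCF1. Median counts per window of the segment were 193 for T and 381 for SMAD1 PV, beside 16 to 29 in the immunoprecipitated BV libraries. A weak enrichment in a single BV window was therefore harder to tell from counting error than in PV. Its absence from the BV libraries cannot be stated at this depth. Some BV windows under an enrichment of 2 did have intervals of the plain ratio above 1. For TCF1 at 13030001 it was 1.60 to 3.19, but that window was named for its height.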

How the data were processed

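The deposited values were whole-number read counts in 2 kb windows stepping by 1 kb, without normalization. Reads were aligned to mm9 with Bowtie 0.12.8, per the submitters' processing notes. How duplicates and reads with several matches were treated is not given in the sources used here. Each read falls in a pair of windows, so depth and sums used every other window. Counts were divided by each library's autosomal mean, and enrichment used a pseudocount of 0.5 and the input of the same line. Backgrounds were counted over autosomal and X windows with an input level of at least 0.25. Plain ratios and a split of the windows into 1 kb bins were alternatives chosen after seeing the data. This split gave negative values in 47.4% of bins for input BVSC, which was left out of it, and in 0% for the other 8 libraries. Intervals are Clopper-Pearson intervals of the split of counts at 95%, and exact Poisson intervals for levels. Windows named were those at the ends of the segment and of the low stretch, those over Prdm14, regions at 4 or more, and the 3 highest windows of each library that do not overlap. The locus, these rules and the alternatives were chosen with earlier results of these data known. The rules for the segment, the low stretch, the highest T window, the 1 kb split and the intervals were tested on simulated data. These data had the depth of input PV and T, and the call thresholds and backgrounds were not tested on them. Python 3.11.15, numpy 2.4.6, pandas 2.3.3, SciPy 1.17.1 and matplotlib 3.10.9 were used. Gene order came from the RefSeq table of GRCm38.p6, whose coordinates were not used, and motifs were not searched.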

Additional observations from a re-analysis of the deposited data

How the results depend on the processing

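Of 248 values under alternative settings, 224 were classed as the same, 24 as moved and 0 as reversed. Values classed as the same could still differ, such as 12 T windows at 2 or more on plain ratios beside the reported 9. The alternatives were other scalings, thresholds, pseudocounts, inputs and window sets. Scaled to the median, input PV stood at 9.03 times input BV in the segment. With a one-copy level of 3 the low stretch took in its edges and stood at 1.67 times input BV. This was above input BV, whereas the reported value of 0.543 was below it, and it was classed as moved. In 1 kb bins the strongest T enrichment was 9.60. T windows numbered 4 with the threshold raised to 3, and 1 with it raised to 6, by construction. With a pseudocount of 0.1, SMAD1 in BV had 1 window at 2 or more at 12 h, 1 at 24 h and 1 at 36 h, and TCF1 had 2; in 1 kb bins the counts were 3, 2, 3 and 3. On plain ratios, an alternative chosen after seeing the data, SMAD1 PV had 1, SMAD1 in BV had 1, 2 and 4 at these times, and TCF1 had 2. Segments raised in input BV numbered 4 at a minimum of 10 windows, 1 at 50 windows and 1 at a level of 6, and those in input BVSC 1 at 50 windows and 1 at a level of 6. The segment found in input PV remained the single one under each of these settings. No paired analysis was possible because each group has 1 library, and for the same reason no library could be left out of a group. For SMAD1 at 36 h, a difference between the lines cannot be told apart from one between single libraries. The cause of the moved values beyond the settings themselves was not tested.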
